A study of Mus musculus with 6 samples.

Results

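The genes described here are 10 chaperone and stress genes of the endoplasmic reticulum: Hspa5, Sdf2l1, Dnajb9, Manf, Creld2, Pdia3, Pdia4, Pdia6, Herpud1 and Xbp1. They were chosen by name from 33696 genes, with their changes in rods and fibroblasts after tropicamide already known, so their values in those classes are given as a description without a test. The samples were single-cell suspensions of the mouse posterior eye (sclera, choroid and retina), and each pool held the right eyes of 4 mice. In the tropicamide group, 12 mice received tropicamide eye drops, a muscarinic receptor antagonist that relaxes the ciliary muscle, 6 times at intervals of 10 min, and the eyes were collected after a wait of 1 h. In the saline group, 12 mice received saline drops at the same frequency and the labels describe the ciliary muscle as contracted. For this group the sources used here give neither the number of drops nor the wait before collection. Each group was 3 pools. The sources used here name no strain, age or sex, and no untreated eyes were analysed here. The series asks how contraction of the ciliary muscle bears on the onset of myopia.

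Proteins bound for the cell surface, the extracellular space or the secretory organelles are folded in the endoplasmic reticulum. When unfolded protein builds up there, sensors in its membrane switch on the unfolded protein response: Ire1 splices the messenger RNA of the transcription factor Xbp1, Atf6 is cut into an active factor, and Perk slows translation and favours Atf4. The genes for folding helpers are among the targets. Fibroblasts of the sclera secrete collagen in bulk and rods renew their opsin-filled outer segments throughout life, so both depend on this folding machinery.

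Within the set, Hspa5 encodes BiP, the main Hsp70 chaperone of the compartment and a brake on all 3 sensors. Dnajb9 is a J-domain partner of BiP and a repressor of Ire1, Sdf2l1 joins J-domain complexes with BiP, and Manf is a secreted neurotrophic protein that also binds BiP. Creld2 is a secreted protein induced by stress in this compartment. Pdia3, Pdia4 and Pdia6 are disulfide isomerases, of which Pdia3 works with calnexin and calreticulin on glycoproteins. Herpud1 is a membrane protein of the machinery that exports misfolded protein for degradation.

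The promoter sequence is shown for the 4 members whose window holds a known stress-response element, so that the element can be read beside their values. RefSeq windows of mouse build GRCm38.p6, 250 bases before to 50 after the gene start, were found for 9 of the 10 genes. The endoplasmic reticulum stress element, searched on both strands as CCAAT, any 9 bases, CCACG, was in 39 of 32851 gene windows (0.119%) in 3 of the 9 members (Hspa5, Creld2 and Pdia6) and in 7 of 61 other genes of the pathway with a window. A related element, searched on both strands as ATTGG, any base, CCACG, was in 12 windows (0.0365%), one of them that of Herpud1. The 140 bases upstream of each start are printed 5′ to 3′ on the strand of the gene, with the element in capitals. All 4 genes lie on the plus strand. The windows are chr2:34771950-34772089 for Hspa5, chr15:88819506-88819645 for Creld2, chr12:17266449-17266588 for Pdia6 and chr8:94386289-94386428 for Herpud1.
Hspa5: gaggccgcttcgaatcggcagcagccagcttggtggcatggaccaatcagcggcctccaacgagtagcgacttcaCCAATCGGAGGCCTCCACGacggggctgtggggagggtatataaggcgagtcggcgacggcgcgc
Creld2: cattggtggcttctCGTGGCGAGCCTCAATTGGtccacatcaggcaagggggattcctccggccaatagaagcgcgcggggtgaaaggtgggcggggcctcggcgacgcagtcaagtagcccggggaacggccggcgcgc
Pdia6: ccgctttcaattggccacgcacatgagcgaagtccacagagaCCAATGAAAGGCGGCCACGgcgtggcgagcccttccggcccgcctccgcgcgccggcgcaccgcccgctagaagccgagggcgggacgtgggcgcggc
Herpud1: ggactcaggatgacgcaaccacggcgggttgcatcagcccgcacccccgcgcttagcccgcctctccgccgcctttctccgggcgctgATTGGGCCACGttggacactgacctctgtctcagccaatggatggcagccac

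Creld2 carries its element on the opposite strand, from 126 to 108 bases before the start, whereas the Hspa5 copy runs from 65 to 47 and the Pdia6 copy from 98 to 80 bases before it. The 11 bases in Herpud1 lie 52 to 42 before the start. The shorter pieces are common: CCAAT alone was in 37.4% of all windows and in 8 of the 9 members, and CCACG alone in 32.8% and in 7 of the 9, counts that include the copies inside the elements above. Another element, searched on both strands as TGACG followed directly by TGG, was in 0.676% of windows and in no member. Sdf2l1, Dnajb9, Pdia3, Pdia4 and Xbp1 held none of the 3 elements in their windows. A match of letters is not a bound site, and whether the elements bear on the values below was not tested.

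The 6 pools held 66434 cell barcodes and 229624062 UMIs (unique molecular identifiers, 1 per captured RNA molecule), between 30761887 and 49477707 UMIs a pool, and 60058 cells were kept. The cells were sorted into classes by clustering and by marker genes, and a class named this way is called rod-like, fibroblast-like and so on. None of the 10 genes was among the genes used for clustering. Rod-like cells numbered 6462 to 9537 in tropicamide pools and 7608 to 8767 in saline pools, with median depths of 1954 to 2001 and 2126 to 2229 UMIs per cell. Fibroblast-like cells numbered 414 to 648 in tropicamide pools and 240 to 499 in saline pools, at 13365 to 14274 and 13537 to 14528 UMIs per cell. UMI counts were summed over the cells of a class in each pool, and levels are given as CPM, the count divided by all UMIs of that class and pool and scaled to 1000000. Free RNA was not removed: fibroblast-like cells held 1186 to 1838 CPM of the 9 rod markers in tropicamide pools and 1033 to 1429 CPM in saline pools, against at least 27500 CPM in rod-like cells. Nothing in the labels says whether the pools of a group were processed on separate days.

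Across the cell classes, the endoplasmic reticulum genes were highest in retinal pigment epithelium-like (RPE-like) and fibroblast-like cells and low in neurons of the retina. Of 17 classes with at least 100 cells, fibroblast-like cells were among the 3 highest for 8 of the 10 genes and RPE-like cells for 7. Rod-like cells had a median rank of 12, and for Hspa5, Pdia3 and Pdia6 they were the lowest of all 17. The median mitochondrial share per cell was 0.171 to 0.369% in the pools of rod-like cells and 1.46 to 1.75% in those of fibroblast-like cells. The part of this difference, and of the difference in depth given above, in the levels was not tested. The classes were built from the same cells, so their levels are given without a test, as the mean and SD of the 6 pools of both groups.

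Hspa5 averaged 563 ± 53.9 CPM in fibroblast-like cells and 134 ± 14.5 CPM in rod-like cells (SD, n = 6), a ratio of 4.20. Its highest class was an unnamed cluster led by Ptn, Schip1, Edn3 and Igf1 (cluster B6), at 699 ± 71.8 CPM, followed by an unnamed cluster led by Igfbp5, Ccn2, Myoc and Serpine2 (cluster B2), at 630 ± 42.8 CPM. The step from B6 to B2 was 1.17 times their pooled SD. Pericyte-like cells came next at 573 ± 218 CPM, a spread too wide to place them, then fibroblast-like and RPE-like cells, which were 0.290 pooled SDs apart. The ratio of fibroblast-like to rod-like cells was largest for the isomerases Pdia3 (6.49) and Pdia6 (4.60). Pdia3 averaged 392 ± 45.3 CPM in fibroblast-like and 60.4 ± 7.44 CPM in rod-like cells, and Pdia6 252 ± 48.7 and 54.9 ± 7.65 CPM. Rod-like cells stood alone at the bottom for Pdia3: the next class up, cone bipolar-like cells, had 102 ± 14.9 CPM, 3.59 pooled SDs higher.

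The other ratios of fibroblast-like to rod-like cells were 2.99 for Sdf2l1, 2.86 for Dnajb9, 2.81 for Herpud1, 2.65 for Pdia4, 2.18 for Xbp1, 1.68 for Creld2 and 1.66 for Manf. The isomerase gene Pdia4 was highest in RPE-like cells, at 99.9 ± 16.8 CPM, 2.16 pooled SDs above fibroblast-like cells at 70.0 ± 10.2 CPM. RPE-like cells likewise led for Sdf2l1 (55.6 ± 16.5 CPM), Manf (211 ± 34.3), Creld2 (38.0 ± 17.2) and Pdia6 (267 ± 34.9), each within 1 pooled SD of the class below. Herpud1 and Xbp1 had another order. Herpud1 was highest in cluster B2, at 217 ± 16.4 CPM, 2.06 pooled SDs above fibroblast-like cells at 184 ± 16.4 CPM, whereas RPE-like cells had 78.6 ± 21.2 CPM. Xbp1 was level in fibroblast-like (88.9 ± 12.4 CPM), endothelial-like (88.8 ± 20.2) and pericyte-like cells (87.1 ± 26.2) and low in RPE-like cells (37.7 ± 8.80).

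**Figure D1:**
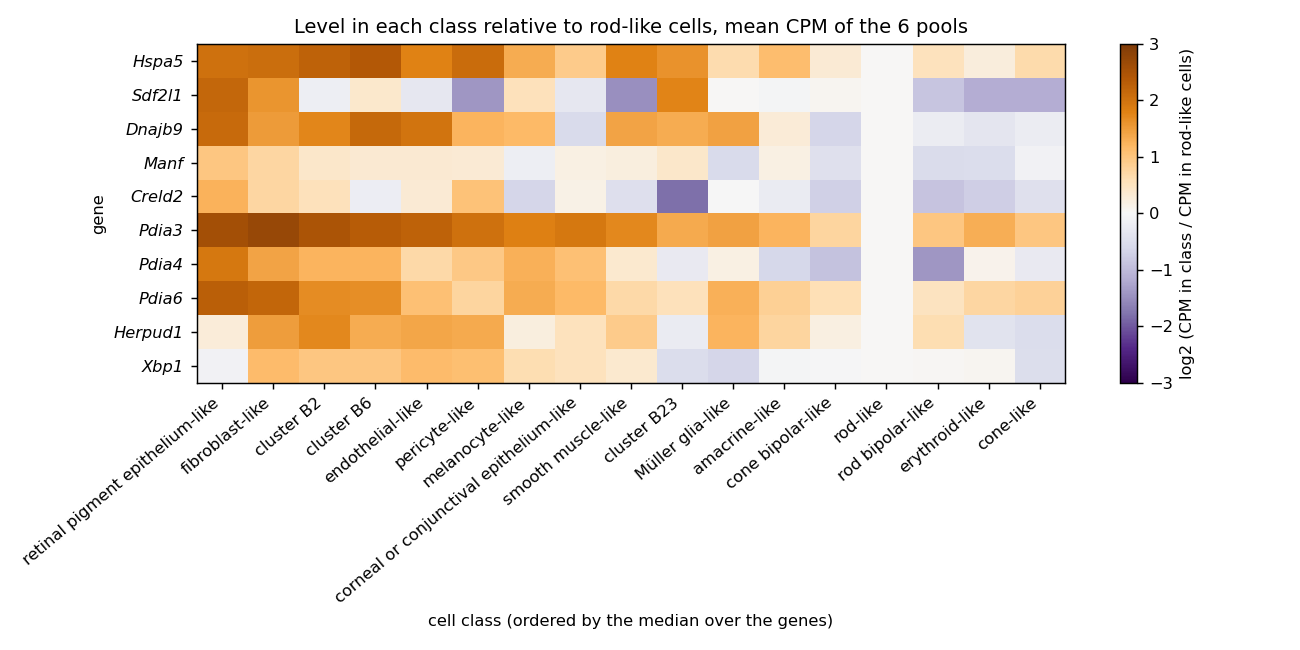
Colour gives the log2 ratio of the mean CPM of 6 pools in each cell class (x axis, ordered by the median over the genes) to that in rod-like cells, for 10 endoplasmic reticulum genes (y axis). Pdia3, at 6.49 times the rod-like level in fibroblast-like cells, is raised over rod-like cells in every other class, and Xbp1 is near the rod-like level in RPE-like cells.

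Over the 17 classes, the levels of the 10 genes had a median pairwise Pearson r of 0.59, with Pdia3 and Hspa5 the most alike (0.872) and Sdf2l1 and Xbp1 the least (-0.081). These are correlations across classes that share libraries, and several small classes have few UMIs. Averaged over the 10 genes and set against the 8304 genes with a mean of at least 20 CPM over the 9 larger classes, the profile was matched most closely by Rps15a (r = 0.985), Abracl (0.984), Txndc17 (0.981), Fap (0.977) and Rnh1 (0.973). Of 61 other genes of the pathway that were ranked, 7 were among the 100 closest, the first of them Kdelr1 at rank 19 (r = 0.953).

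In rod-like cells, the isomerase genes Pdia6 and Pdia3 were higher and Herpud1 was lower in every tropicamide pool than in every saline pool. The remaining 7 genes overlapped between the groups. These members were selected with this contrast in view: 2 of 10 lay wholly higher, where 13.5% of all 16309 genes tested did, and 1 of 10 wholly lower, where 18.2% did, and nothing is read from these counts. With CPM divided by the TMM factors of the fit the same members stood apart.

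Herpud1 had 50.4, 57.7 and 49.6 CPM in tropicamide pools 1 to 3, against 68.8, 87.2 and 78.2 CPM in saline pools 1 to 3. The highest tropicamide pool was below the lowest saline pool. The log2 fold change, fitted with edgeR as tropicamide over saline, was -0.55, and it stayed between -0.65 and -0.47 under 15 other settings. Pdia6 had 59.1, 65.0 and 59.2 CPM in tropicamide pools, against 48.5, 44.4 and 52.9 CPM in saline pools, a log2 fold change of 0.35. Pdia3 had 62.5, 71.7 and 61.9 CPM in tropicamide pools and 53.3, 51.0 and 61.9 CPM in saline pools, a log2 fold change of 0.26. The groups of Pdia3 touch: the lowest tropicamide pool had 61.93 and the highest saline pool 61.86 CPM, while those of Pdia6 were apart. The remaining isomerase, Pdia4, had 27.2, 28.1 and 26.9 CPM against 28.1, 22.6 and 25.4 CPM in saline pools, and these overlap.

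Among the chaperones in rod-like cells, Hspa5 had 134, 154 and 136 CPM in tropicamide pools and 121, 114 and 144 CPM in saline pools, a log2 fold change of 0.17. Saline pool 3 lay inside the tropicamide range. Manf had 98.2, 110 and 105 CPM in tropicamide pools, against 109, 109 and 110 CPM in saline pools. Its saline pools were nearly identical and 2 of the 3 tropicamide pools were below them. Sdf2l1 ranged from 11.3 to 14.9 CPM in tropicamide pools and from 10.8 to 12.8 CPM in saline pools, on 154 to 290 UMIs a pool. Dnajb9 ranged from 39.8 to 44.0 and from 37.3 to 43.8 CPM, and Creld2 from 16.2 to 17.2 and from 13.6 to 17.4 CPM, in tropicamide and saline pools. The log2 fold changes of Sdf2l1, Dnajb9, Creld2 and Manf were 0.17, 0.08, 0.15 and -0.05. The transcription factor gene Xbp1 had 41.8, 49.3 and 40.7 CPM in tropicamide pools and 35.4, 34.0 and 42.9 CPM in saline pools, a log2 fold change of 0.25 with saline pool 3 inside the tropicamide range. These values count all Xbp1 transcripts, spliced and unspliced alike. With 1 pool left out at a time the log2 fold change ran from 0.10 to 0.27 for Hspa5, 0.06 to 0.25 for Sdf2l1, 0.02 to 0.14 for Dnajb9, -0.09 to -0.01 for Manf, 0.08 to 0.26 for Creld2, 0.05 to 0.21 for Pdia4 and 0.16 to 0.36 for Xbp1, so their sizes rest on single pools.

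**Figure D2:**
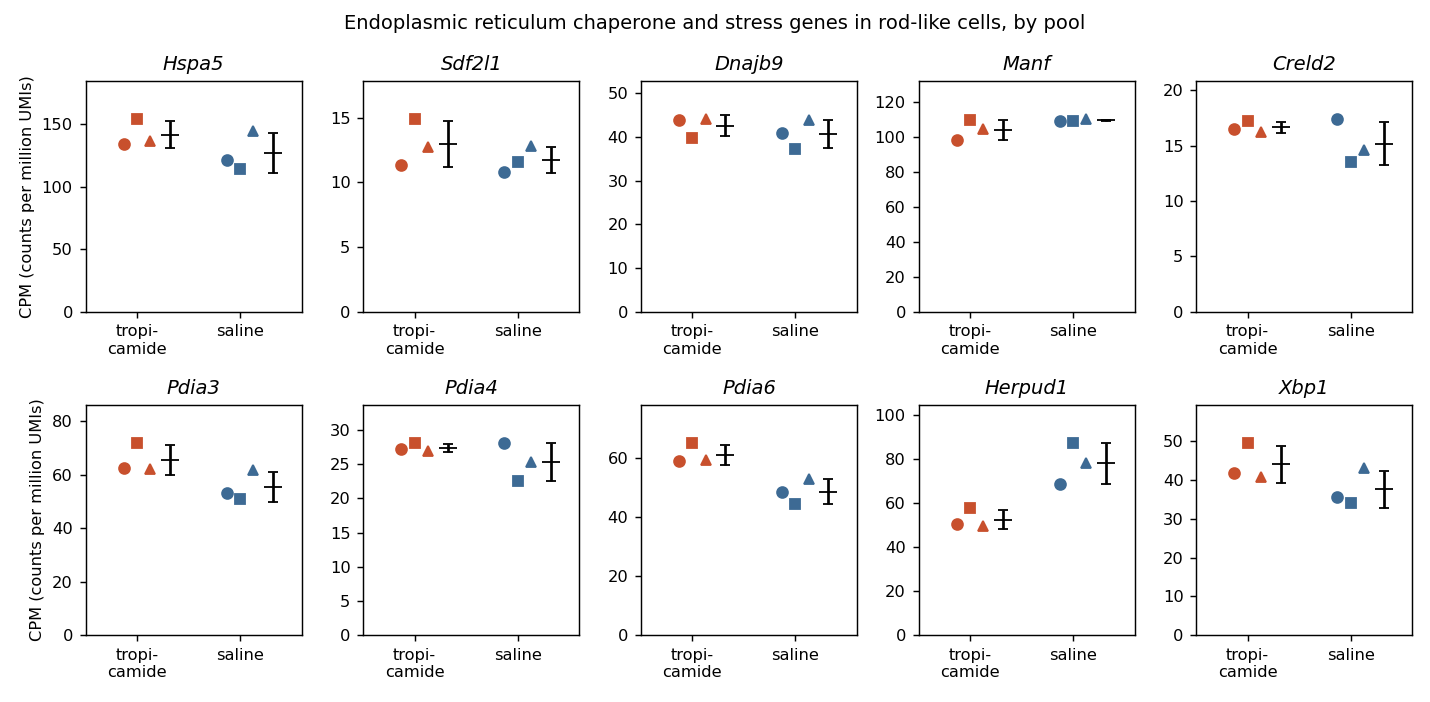
Each panel plots the CPM of 1 gene in rod-like cells, with a point per pool (circle, square and triangle for pools 1 to 3), tropicamide left of saline, and the mean with its SD to the right of each group (n = 3). Herpud1 sits at 49.6 to 57.7 CPM after tropicamide, below the 68.8 to 87.2 CPM of saline pools, whereas Pdia6 is above its saline pools.

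The median log2 fold change of the 10 genes in rod-like cells was 0.16, with 8 of 10 above 0. Over all 16309 genes tested the median was near 0, at -0.0039, with 49.3% above 0, and since the members were selected on this contrast nothing is read from that comparison. Leaving out saline pool 2 gave a median of 0.09. Rod-like cells formed 11 clusters, of which 10 had at least 30 cells in every pool. Herpud1 was lower after tropicamide in 8 of those 10, wholly so in 6, and its log2 ratio of means ran from -0.79 to 0.10 over them. Manf was lower in 9 of the 10 clusters, without a gap between the groups in any. Pdia3 was higher in 9 and Pdia6 in 8 of the 10, with a gap in 3 clusters each. The clusters come from the same pools, and the share of all genes apart within them is not given, so nothing is read from these counts. The clusters were unevenly filled: the largest, cluster A0, held 18.5 to 22.5% of the rod-like cells of tropicamide pools and 27.8 to 34.6% of those of saline pools. In that cluster alone Herpud1 averaged 44.8 CPM after tropicamide and 70.8 CPM after saline.

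Markers of other cell types also differed between the groups in rod-like cells. The 8 RPE markers summed to 141 to 326 CPM in tropicamide pools and 40.1 to 87.3 CPM in saline pools, with 7 of the 8 higher after tropicamide. The 8 fibroblast markers, all higher after tropicamide, summed to 348 to 468 and 163 to 327 CPM, and 4 of the 5 erythroid markers were higher, summing to 50.5 to 2227 and 12.1 to 29.4 CPM. No marker of these 3 lists was at 0. Their part in the values of rod-like cells was not tested. The share of UMIs from mitochondrial genes was 0.892 to 1.34% in tropicamide pools and 0.936 to 1.25% in saline pools, and the median over the 10 genes was 0.15 in cells at or above the median mitochondrial share and 0.19 in cells below it.

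In fibroblast-like cells, 6 of the 10 genes were higher in every tropicamide pool than in every saline pool: Creld2, Sdf2l1, Manf, Pdia6, Pdia3 and Pdia4. Dnajb9 was lower in every tropicamide pool, and Hspa5, Herpud1 and Xbp1 overlapped. Of all 13742 genes tested in these cells 14.2% lay wholly higher and 6.11% wholly lower, and since the members were selected with this contrast in view nothing is read from the counts. With CPM divided by the TMM factors, 5 members stood wholly higher (8.54% of all genes) and 1 wholly lower (9.23%), and Pdia4 overlapped. No gene in this class passed an adjusted p of 0.05 in edgeR's quasi-likelihood test (1625 at an unadjusted p under 0.05, 11.8% of them), whereas DESeq2 called 142.

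Creld2 had 34.3, 34.1 and 35.8 CPM in tropicamide pools 1 to 3, against 18.9, 18.8 and 18.5 CPM in saline pools 1 to 3. The pools of each group were almost level, and the log2 fold change was 0.82. These values rest on 210 to 289 UMIs in tropicamide pools and 66 to 127 in saline pools. Sdf2l1 had 45.7, 40.7 and 49.3 CPM in tropicamide pools, against 24.7, 31.9 and 29.5 CPM in saline pools, a log2 fold change of 0.59. Manf had 226, 218 and 193 CPM in tropicamide pools and 138, 142 and 149 CPM in saline pools, a log2 fold change of 0.49. For all 3 of these genes the gap between the groups was wider than the range of the saline pools.

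The isomerases followed with smaller differences. Pdia6 had 299, 283 and 301 CPM in tropicamide pools, against 184, 226 and 221 CPM in saline pools, a log2 fold change of 0.41. Pdia3 had 436, 420 and 432 CPM in tropicamide pools and 324, 356 and 384 CPM in saline pools, a log2 fold change of 0.20. Pdia4 had 78.6, 70.5 and 81.7 CPM in tropicamide pools and 68.1, 52.7 and 68.2 CPM in saline pools, a log2 fold change of 0.21. Pdia4 had the narrowest gap of the 3, and after TMM scaling its pools overlapped, at 73.6, 68.9 and 82.8 CPM in tropicamide pools and 69.4, 55.0 and 69.2 CPM in saline pools, while those of Pdia6 and Pdia3 stayed apart. Fold changes in these cells were scaled by factors of 0.987 to 1.07 in tropicamide pools and 0.959 to 0.986 in saline pools, so they are somewhat below the ratios of the CPM values.

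Hspa5, the central chaperone, had 566, 616 and 604 CPM in tropicamide pools and 478, 520 and 594 CPM in saline pools, with saline pool 3 inside the tropicamide range. Its log2 fold change was 0.10, and it was 0.02 without saline pool 1 and 0.18 without saline pool 3. Dnajb9, its J-domain partner, had 83.4, 115 and 108 CPM in tropicamide pools, against 127, 144 and 137 CPM in saline pools, a log2 fold change of -0.48. Every tropicamide pool of Dnajb9 was thus below every saline pool, opposite in sign to the other members whose groups stood apart. Herpud1 had 202, 193 and 159 CPM in tropicamide pools and 189, 168 and 191 CPM in saline pools. Its log2 fold change was -0.06, and 0.01 without tropicamide pool 3. Xbp1 had 87.9, 104 and 97.8 CPM in tropicamide pools and 72.4, 76.6 and 95.0 CPM in saline pools, a log2 fold change of 0.17 that ran from 0.09 to 0.30 with 1 pool left out; that of Pdia4 ran from 0.11 to 0.27.

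**Figure D3:**
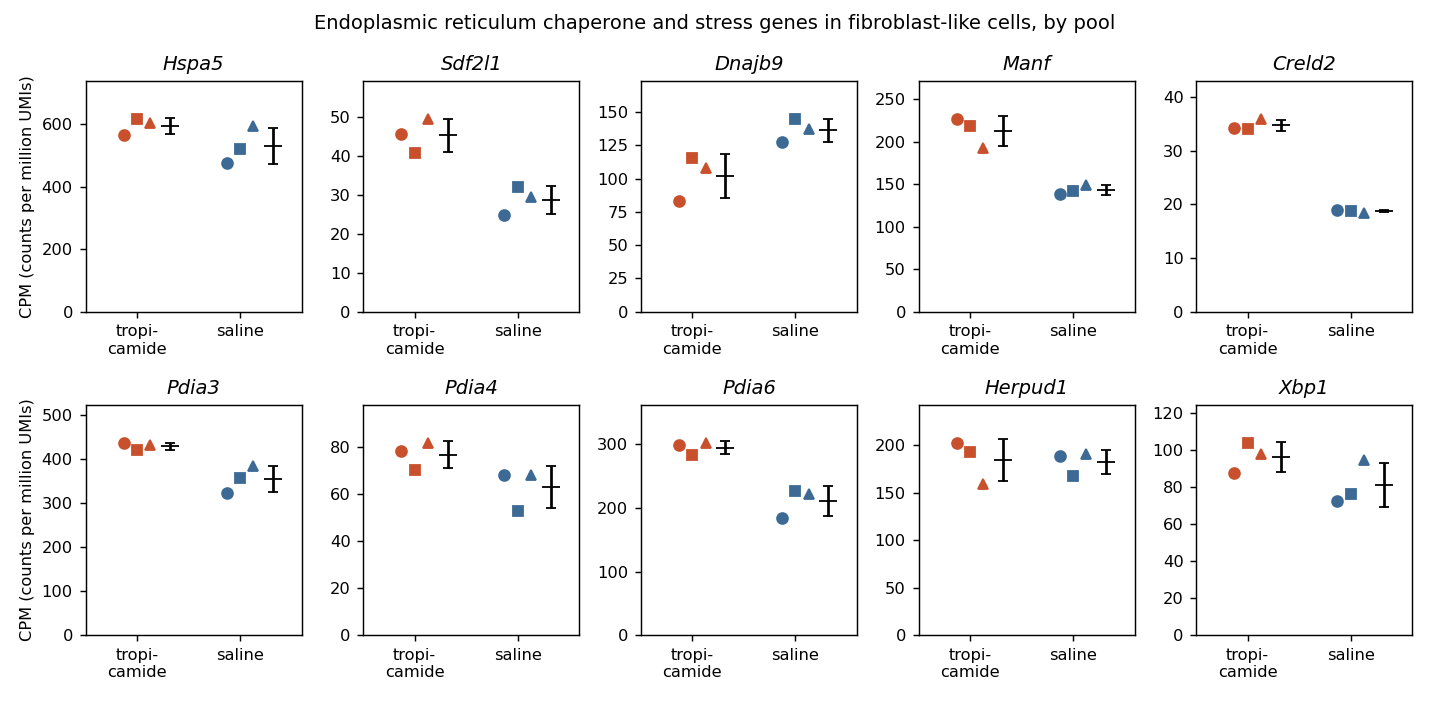
Each panel plots the CPM of 1 gene in fibroblast-like cells, with a point per pool (circle, square and triangle for pools 1 to 3), tropicamide left of saline, and the mean with its SD to the right of each group (n = 3). Creld2 lies at 34.1 to 35.8 CPM after tropicamide and at 18.5 to 18.9 CPM after saline, and Dnajb9 is the 1 gene with all tropicamide pools below the saline pools.

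The median log2 fold change in fibroblast-like cells was 0.21, with 8 of 10 genes above 0, beside a median of 0.0041 and 50.7% above 0 over all genes tested. It was 0.28 without saline pool 3. As the members were selected on this contrast, nothing is read from the comparison with all genes. Of the 8 clusters in the class, 2 had at least 30 cells in every pool (clusters B5 and B8), and in both of them Creld2, Sdf2l1, Manf and Pdia6 were wholly higher after tropicamide. Creld2 averaged 40.6 CPM after tropicamide and 17.8 CPM after saline in cluster B5, and 26.4 and 15.04 CPM in cluster B8. Dnajb9 was lower in both clusters, wholly in 1. Both clusters come from the same pools, and the share of all genes apart within them is not given, so nothing is read from these counts. Cluster B4, led by Pi16, held 5.75% of the fibroblast-like cells in tropicamide pool 1, 22.8 and 35.3% in the other tropicamide pools, and 27.9 to 37.1% in saline pools. Without tropicamide pool 1 the log2 fold change of Creld2 was 0.86 and that of Dnajb9 -0.33.

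In fibroblast-like cells too, the RPE markers differed, with 6 of 8 higher after tropicamide and sums of 183 to 253 CPM in tropicamide pools and 73.9 to 159 CPM in saline pools. All 5 erythroid markers were higher, summing to 20.9 to 91.2 and 2.56 to 7.73 CPM. The fibroblast markers themselves summed to 48749 to 58792 CPM in tropicamide pools and 49324 to 50012 CPM in saline pools. No marker of these 3 lists was at 0, and their part in the values was not tested.

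Rod-like and fibroblast-like cells did not show the same genes apart. Herpud1 had a log2 fold change of -0.55 in rod-like and -0.06 in fibroblast-like cells, Dnajb9 0.08 and -0.48, Manf -0.05 and 0.49, Sdf2l1 0.17 and 0.59, and Creld2 0.15 and 0.82. Both classes came from the same pools, the members were chosen from these contrasts, and the differences were not tested. Pdia6 and Pdia3 were the genes whose tropicamide pools lay above the saline pools in both classes. Of the members with a stress element, Hspa5 overlapped in both classes, Pdia6 was wholly higher in both, Creld2 was wholly higher in fibroblast-like cells and overlapped in rod-like cells, and Herpud1 was wholly lower in rod-like cells and overlapped in fibroblast-like cells.

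**Figure D4:**
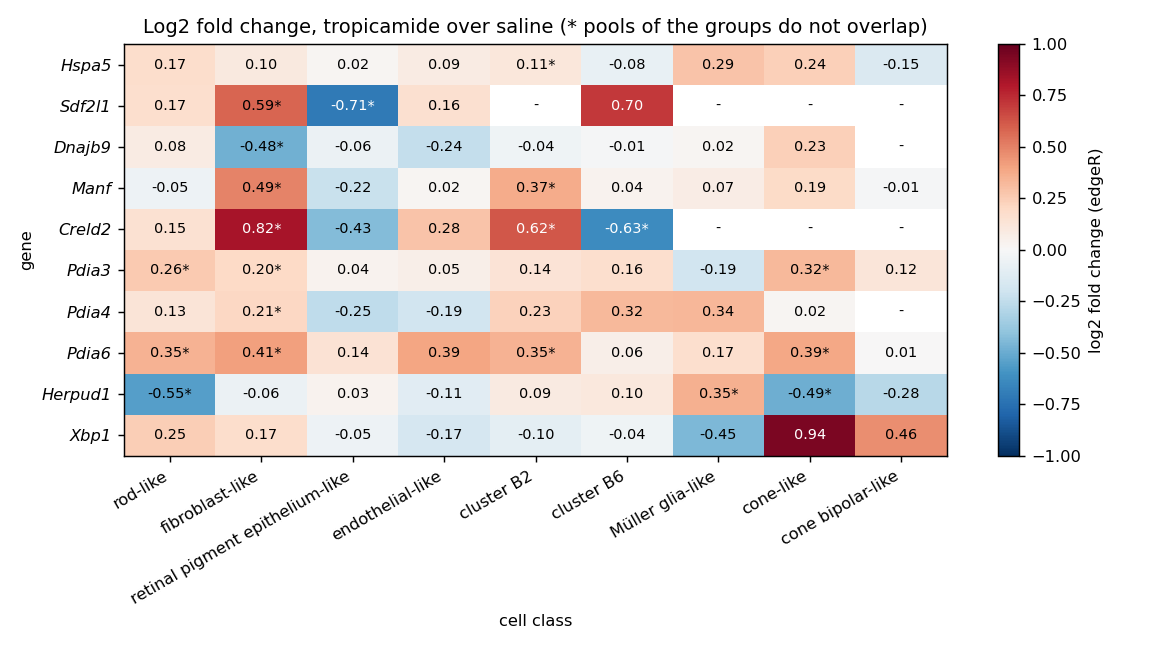
Colour and numbers give the log2 fold change (edgeR, tropicamide over saline) of the 10 genes (y axis) in 9 cell classes (x axis), with an asterisk where the pools of the groups did not overlap in CPM and a dash where the gene did not pass the filter on low counts. Fibroblast-like cells show the most asterisks, 6 for higher and 1 for lower values, and endothelial-like and cone bipolar-like cells show none.

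The other 7 classes with at least 30 cells in every pool were tested, with Benjamini-Hochberg adjustment over all genes of the class. The choice of members named rods and fibroblasts only. In cluster B2 the 8 fibroblast markers summed to 14829 to 17224 CPM in tropicamide pools and 11383 to 19278 CPM in saline pools. In cluster B6 they summed to 22545 to 24282 and 23934 to 25571 CPM. Whether these cells counted as fibroblasts in that choice is not known, so tests in both clusters may not be independent of it. No member passed an adjusted p of 0.05 in any of them, with edgeR or with DESeq2. For some members that passed the filter DESeq2 gave no adjusted p. These were Creld2 in cluster B2, Sdf2l1 and Creld2 in cluster B6, Sdf2l1 in endothelial-like cells, and Manf, Pdia4 and Xbp1 in Müller glia-like cells. The filter on low counts was passed by all 10 members in RPE-like, endothelial-like and cluster B6 cells, by 9 in cluster B2 (not Sdf2l1), by 8 in Müller glia-like and in cone-like cells (neither Sdf2l1 nor Creld2) and by 6 in cone bipolar-like cells (not Sdf2l1, Dnajb9, Creld2 or Pdia4).

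In RPE-like cells, the pigmented support layer of the photoreceptors, 0 of 10 members were called, where 0.119% of 5063 genes were, and 1 member had an unadjusted p under 0.05, as did 6.54% of all genes. This was Sdf2l1, with 38.7, 43.2 and 43.5 CPM in tropicamide pools, against 58.2, 77.2 and 72.9 CPM in saline pools. These values rested on 24 to 67 UMIs in tropicamide pools and 12 to 30 in saline pools. RPE-like cells numbered 281 to 686 in tropicamide pools and 71 to 189 in saline pools. The groups did not overlap, which was so for 1 of 10 members and 7.27% of all genes in this direction, and edgeR gave a log2 fold change of -0.71 with an adjusted p of 0.435 (SE 0.234). Its direction was opposite to that in fibroblast-like cells. Marker sums moved too in RPE-like cells: the 8 melanocyte markers, none of them higher after tropicamide, summed to 2433 to 3946 CPM in tropicamide pools and 3983 to 6166 CPM in saline pools, and the 8 fibroblast markers, all higher, to 331 to 461 and 101 to 267 CPM. The Müller glia markers, with 2 of 8 higher, summed to 8632 to 9013 CPM in tropicamide pools and 9265 to 9601 CPM in saline pools. No melanocyte, fibroblast or Müller glia marker was at 0, and their part in the Sdf2l1 value was not tested. The next smallest p was that of Manf, with a log2 fold change of -0.22 with an SE of 0.136 (edgeR adjusted p = 0.814), which became -0.07 without saline pool 3.

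In cluster B2, whose cells resembled the fibroblast list without reaching the limit for a name, 0 of 9 members were called, where 0.133% of 9017 genes were, and 3 had an unadjusted p under 0.05, as did 7.71% of all genes. Pdia6 had 190, 204 and 200 CPM in tropicamide pools, against 156, 154 and 140 CPM in saline pools, a log2 fold change of 0.35 with an SE of 0.124 (edgeR adjusted p = 0.461). Manf had 147, 167 and 174 CPM in tropicamide pools and 132, 115 and 117 CPM in saline pools, a log2 fold change of 0.37 with an SE of 0.134 (edgeR adjusted p = 0.466). Creld2, which passed the same unadjusted limit, had 26.5, 28.5 and 31.6 CPM in tropicamide pools and 18.5, 16.9 and 18.0 CPM in saline pools, a log2 fold change of 0.62 with an SE of 0.236 (edgeR adjusted p = 0.499). Creld2 rested on 27 to 70 UMIs in tropicamide pools and 9 to 15 in saline pools. Pdia6, Manf, Creld2 and Hspa5 had every tropicamide pool above every saline pool, 4 of 9 members where 9.16% of all genes did. The RPE markers in this cluster summed to 316 to 484 CPM in tropicamide pools and 112 to 159 CPM in saline pools, with 7 of 8 higher, and their part in these values was not tested.

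In cluster B6 0 of 10 members were called (0.0664% of 9032 genes), and none had an unadjusted p under 0.05, as 7.1% of all genes did. The smallest p values were those of Sdf2l1, with a log2 fold change of 0.70 with an SE of 0.363 (edgeR adjusted p = 0.729), and Creld2, with -0.63 (SE 0.356, edgeR adjusted p = 0.771). Creld2 had 10.1, 13.1 and 8.33 CPM in tropicamide pools of this cluster, against 23.1, 15.1 and 13.6 CPM in saline pools, so the tropicamide pools were the lower ones here, without overlap, as for 4.04% of all genes, on 7 to 21 UMIs in tropicamide pools and 7 to 15 in saline pools. Without tropicamide pool 2 the log2 fold change of Sdf2l1 was 0.40. In endothelial-like cells 0 of 10 members were called by edgeR, which called 0% of 10638 genes (593, or 5.57%, at an unadjusted p under 0.05, and 10 by DESeq2). No member had an unadjusted p under 0.05 or groups apart, as 11.9% of all genes had in either direction. Pdia6 was the nearest, with 122, 162 and 113 CPM in tropicamide pools and 115, 63.4 and 111 CPM in saline pools (log2 fold change 0.39, SE 0.203, edgeR adjusted p = 0.902). Without tropicamide pool 2 its log2 fold change was 0.22.

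In Müller glia-like cells, the radial glia of the retina, 0 of 8 members were called, where 1.12% of 6901 genes were, and none had an unadjusted p under 0.05, as 12.1% of all genes did. Herpud1 had 166, 192 and 162 CPM in tropicamide pools, against 129, 132 and 144 CPM in saline pools, a log2 fold change of 0.35 with an SE of 0.191 (edgeR adjusted p = 0.465). The groups did not overlap, with tropicamide the higher one, as for 9.29% of all genes. The depth of these cells differed between the groups, with median UMI counts of 1235 to 1631 per cell in tropicamide pools and 3228 to 7567 in saline pools. The cells also fell differently into the 2 clusters of the class, with 45.1 to 51.2% in cluster B21 in tropicamide pools and 20.5 to 27.3% in saline pools. All 9 rod markers were higher after tropicamide, summing to 3254 to 6031 CPM in tropicamide pools and 2204 to 2862 CPM in saline pools, as were all 8 fibroblast markers, at 271 to 1015 and 159 to 243 CPM. Mitochondrial genes took 2.06 to 3.06% of UMIs in tropicamide pools and 1.47 to 1.93% in saline pools. No rod or fibroblast marker was at 0, and the part of these differences in the Herpud1 value was not tested.

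In cone-like cells 0 of 8 members were called (0.0275% of 7271 genes) and 1 had an unadjusted p under 0.05, as did 4.57% of all genes. This was Xbp1, with 20.6, 54.1 and 47.2 CPM in tropicamide pools and 24.2, 0 and 24.9 CPM in saline pools (log2 fold change 0.94, SE 0.411, edgeR adjusted p = 0.997). The pool at 0 had 155877 UMIs of these cells, so a level of up to 19.2 CPM could have gone unseen. Herpud1, lower in rod-like cells, had 35.5, 37.5 and 37.4 CPM in tropicamide pools of cone-like cells, against 42.8, 57.7 and 59.7 CPM in saline pools, again without overlap, as 4.77% of all genes lay wholly lower (log2 fold change -0.49, SE 0.289, edgeR adjusted p = 0.997). Pdia6 and Pdia3 were above their saline pools in cone-like cells as well, where 5.36% of all genes lay wholly higher, with log2 fold changes of 0.39 and 0.32 and edgeR adjusted p = 0.997 for each. Cone-like cells also held 8711 to 10393 CPM of the 9 rod markers in tropicamide pools and 8905 to 11329 CPM in saline pools. The part of rod RNA in these values was not tested. Herpud1 rested on 18 to 19 UMIs in tropicamide pools and 9 to 24 in saline pools. In cone bipolar-like cells 0 of 6 members were called (0.0355% of 5631 genes), and none had an unadjusted p under 0.05 (4.01% of all genes) or groups apart in either direction (9.07%).

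Whether the change of a member differed between classes was tested among these 7 classes only, on differences taken within each pool with limma. Over 21 pairs of classes and 165 tests of members, 0 passed an adjusted p of 0.05, where 0.000852% of 117305 gene tests did, and 10 had an unadjusted p under 0.05, where 6.42% of all gene tests did. The smallest of these was Creld2 in cluster B2 against cluster B6, a difference of 1.25 on the log2 scale with a limma adjusted p of 0.847. Herpud1 differed by 0.82 between Müller glia-like and cone-like cells (limma adjusted p = 0.562).

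Other genes of the pathway, 75 in a list set by function, were tested in the same fits. In rod-like cells 73 passed the filter and 5 were called, 2 higher and 3 lower, where 9.9% of all genes tested in these cells were called (5.35% higher and 4.54% lower). The share among the pathway genes, 5 of 73, was thus not above that of all genes. Of these 5, 3 belong to the Perk and Atf4 arm, of which 6 genes were tested. Ddit3, also of this arm, was not among the genes counted and so was not tested. Nupr1, a stress-induced transcriptional regulator, rose by a log2 fold change of 1.01 with an SE of 0.201 (edgeR adjusted p = 0.0124), with 16.1, 16.9 and 11.1 CPM in tropicamide pools and 6.53, 5.63 and 9.90 CPM in saline pools. Fibroblast-like cells held 1174 to 1524 CPM of Nupr1 in tropicamide pools and 1016 to 1168 CPM in saline pools, and the fibroblast markers within rod-like cells moved the same way, as given above. The part of that RNA in the Nupr1 value was not tested.

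Sesn2, a stress-induced regulator of growth signalling, fell in rod-like cells, with 6.62, 5.39 and 5.29 CPM in tropicamide pools and 8.65, 10.2 and 8.48 CPM in saline pools (log2 fold change -0.66, SE 0.139, edgeR adjusted p = 0.0155). Trib3, a pseudokinase induced by Atf4, fell as well, with 18.2, 23.1 and 21.1 CPM against 25.2, 35.0 and 26.1 CPM in saline pools (log2 fold change -0.44, SE 0.125, edgeR adjusted p = 0.0456). Atf4 itself averaged 362 CPM in tropicamide pools and 402 CPM in saline pools and was not called (log2 fold change -0.13, edgeR adjusted p = 0.158). Sec61a1, the channel subunit of the translocon, fell by 0.28 on the log2 scale (SE 0.0649, edgeR adjusted p = 0.0231). Tmx1, a membrane-bound thioredoxin-like isomerase, rose by 0.17 (SE 0.0492, edgeR adjusted p = 0.0459). These calls depended on single pools: none of the 75 genes was called without tropicamide pool 2, 1 without tropicamide pool 3 or saline pool 2, 3 without tropicamide pool 1, 4 without saline pool 1 and 11 without saline pool 3. Over 15 other settings, Nupr1 was called in 13, Sesn2 and Trib3 in 11 each, Sec61a1 in 10 and Tmx1 in 7, each with the same sign throughout.

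No other class had a called pathway gene in edgeR or in DESeq2. In fibroblast-like cells 72 pathway genes were tested, 0 were called by edgeR, where 0% of all genes were, and 15 had an unadjusted p under 0.05, as did 11.8% of all genes. The translocation and retrieval genes made up 7 of those 15, of 21 tested, and 19 of the 21 had a log2 fold change above 0, with a median of 0.12. The 6 genes of the Perk and Atf4 arm had a median of -0.13, and the 9 sensors and membrane-bound factors -0.14. Of the 11 chaperones and co-chaperones tested, 8 were above 0, with a median of 0.14. In RPE-like cells 53 pathway genes were tested, with 20 above 0 and a median of -0.08. Of the 53, 4 had an unadjusted p under 0.05, as did 6.54% of all genes. The counts at that unadjusted limit, with the share of all genes in brackets, were 10 of 68 genes in cluster B2 (7.71%) and 0 of 70 in cluster B6 (7.1%). They were 3 of 69 in endothelial-like (5.57%), 3 of 55 in Müller glia-like (12.1%), 3 of 53 in cone-like (4.57%) and 1 of 42 in cone bipolar-like cells (4.01%).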

How the data were processed

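Per the labels, each library is a single-cell suspension of the posterior eye, 4 right eyes a pool. The deposited values are UMI counts per gene and cell barcode, made by the authors with Cell Ranger 8.0.1, STAR and build GRCm39 per the submitters' processing notes. The labels' extraction text describes sorting of cells from bone and was not used.

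Barcodes with under 500 UMIs, under 300 genes or over 20% mitochondrial UMIs were removed (416), then 5960 likely doublets, scored against simulated pairs at 0.8% per 1000 barcodes. Of 65910 distinct barcode sequences, 522 were in 2 or more libraries. Cells were clustered on 2000 variable genes (30 components, Leiden resolution 1) into 50 clusters, and 45 were named from 27 marker lists. The score limit of 1.1 for a name was set after the clusters were seen; it left cluster B2, among 5, unnamed. Free RNA was not removed.

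UMI counts were summed per class and pool and fitted with edgeR 4.0.16 (TMM, filterByExpr, quasi-likelihood test, Benjamini-Hochberg adjustment within a class at 0.05). Differences between classes used limma 3.58.1, with a prior count of 2, and DESeq2 1.42.0 was an alternative. The fits were tested on simulated data. Nothing says that pools were processed separately beyond holding different mice, so p-values measure the spread between pools. The members and lists were chosen with earlier results of these data known. All members are named in rod-like and fibroblast-like cells. In the other classes the members past the threshold, or else those of the smallest p, are named; Creld2 in cluster B2, Herpud1, Pdia6 and Pdia3 in cone-like cells were added after their values were seen. Pathway genes are named where called, with Atf4 added after its value was seen. No protein sequence was used here, and 1 gene planned for the pathway list, Ddit3, was not among the genes counted and was not analysed.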

Additional observations from a re-analysis of the deposited data

Results flagged for a closer look

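In 3 genes the pools of the groups stood apart in opposite directions in different cell classes, which is what set them out for a second look. How many of all genes did the same is not given, so the count is not read as a trait of these members. Sdf2l1 had a log2 fold change of 0.5852 in fibroblast-like cells, with every tropicamide pool higher, and of -0.7085 in RPE-like cells, with every tropicamide pool lower. The RPE-like value rested on 12 to 30 UMIs in saline pools, and the difference between the classes was not tested. Creld2 had 0.8212 in fibroblast-like cells and 0.6230 in cluster B2, both higher in every tropicamide pool, and -0.6269 in cluster B6, lower in every tropicamide pool. Creld2 rested on 9 to 15 UMIs in saline pools of cluster B2 and on 7 to 21 UMIs a pool in cluster B6. Between clusters B2 and B6 the limma adjusted p was 0.847 (unadjusted p = 0.00212), and the difference from fibroblast-like cells was not tested. Herpud1 had -0.5536 in rod-like and -0.4889 in cone-like cells, lower in every tropicamide pool of both, and 0.3541 in Müller glia-like cells, higher in every tropicamide pool. Between Müller glia-like and cone-like cells the limma adjusted p was 0.562, and the difference from rod-like cells was not tested. No sample was set out as far from its group, since groups of 3 pools are too small for that check.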

How the results depend on the processing

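Over the alternatives, the median log2 fold change of the 10 genes kept its sign in all 15 settings for rod-like cells (0.09 to 0.19) and all 13 for fibroblast-like cells (0.15 to 0.28). Leaving out 1 pool gave 0.0910 to 0.1913 in rod-like and 0.1533 to 0.2823 in fibroblast-like cells. In rod-like cells Sdf2l1 was -0.03 within the largest cluster, and in fibroblast-like cells Herpud1 was 0.01 without tropicamide pool 3. Counting cluster B2 as fibroblasts, an alternative chosen after seeing the data, gave a median of 0.18 and a log2 fold change of 0.77 for Creld2. Dividing CPM by the TMM factors, also added later, left 5 members wholly higher in fibroblast-like cells, against 6, and changed no count in the other 8 compared classes. The count of members called in the 7 tested classes stayed at 0 in all 84 alternatives, as did that for differences between classes in 6. Called pathway genes in rod-like cells, 5 in the main analysis, were 0 to 11 with 1 pool left out, 9 with no filter on low counts, 8 in cells below the median mitochondrial share and 6 with DESeq2. With no filter they were 2 in fibroblast-like and 1 in cone bipolar-like cells. The cause was not tested.

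The deviations of same-numbered pools from their group means had r = -0.029, -0.125 and -0.247 in rod-like cells. With 3 pools a group, centred on their own mean, these values cannot tell whether same-numbered pools were handled together. With a replicate block the medians were 0.1599 in rod-like and 0.2135 in fibroblast-like cells, 4 pathway genes were called in rod-like cells and 0 members in the tested classes. Over all genes, fibroblast-like cells had 0 calls with edgeR and 142 with DESeq2, 158 without tropicamide pool 3, and 451 with no filter. Rod-like cells had 382 without tropicamide pool 2 and 2353 without saline pool 3, against 1614.

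With 3 pools a group and as few as 30 cells of a class in a pool, low genes are the least certain: Creld2 and Sdf2l1 fell under the filter in several classes.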

Other observations

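The smooth muscle-like class had too few cells in some pools to be compared (43 to 113 in tropicamide pools and 21 to 106 in saline pools). Pdia3, named here after its values were seen, had 220, 220 and 249 CPM in tropicamide pools and 136, 184 and 190 CPM in saline pools of these cells, on 23 to 181 UMIs a pool. Creld2, likewise named afterwards, had 12.1, 16.2 and 16.6 CPM in tropicamide pools and 11.8, 4.71 and 7.35 CPM in saline pools. Its groups did not overlap but nearly touched, at 12.13 CPM in the lowest tropicamide pool and 11.83 CPM in the highest saline pool. These values rested on only 6 to 13 UMIs in tropicamide pools and 1 to 6 in saline pools. In other classes too small to compare, members stood apart in both directions. Herpud1 was wholly lower after tropicamide in corneal or conjunctival epithelium-like cells and wholly higher in rod bipolar-like cells. Xbp1 was wholly lower in pericyte-like and erythroid-like cells and wholly higher in rod bipolar-like cells. Its UMIs a pool were 3 to 12 in tropicamide and 3 to 11 in saline pools of pericyte-like cells. They were 2 to 4 and 1 to 3 in erythroid-like cells, and 10 to 20 and 3 to 13 in rod bipolar-like cells. The share of all genes apart in these small classes is not given, so nothing is read from them. Per the series' design text the ciliary body and iris were cut away before dissociation. No test was made of these values.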
